A study of Homo sapiens with 2 samples.

Results

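The rows described here are those of the deposited array table that the platform annotation gives to 1 microRNA gene or 1 microRNA host gene. A row was taken when its only platform symbol began with MIR and a digit, began with MIRLET, or began with MIR and ended in HG. This gave 1103 rows, with 1056 symbols, out of 70523 rows in the table and 23781 rows with 1 symbol. Of the 1103 rows, 1087 were microRNA genes and 16 were host genes, which are long non-coding RNAs named for the microRNA they contain.

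Total RNA of the human gastric carcinoma line NCI-N87 was hybridised to the Affymetrix Human Transcriptome Array, a 1-colour array. RNA of untreated parental cells was on one array, and RNA of cells labelled TDM-1 resistant on the other. The name stands for resistance to the HER2 antibody-drug conjugate trastuzumab emtansine (T-DM1). NCI-N87 carries an amplified ERBB2 gene. The labels give no dose, passage or number of clones for the resistant line. All differences below are the resistant minus the parental value on the deposited log2 scale. Each group is 1 array, so no test or error can be given, and precision is limited by that number of arrays. A row was called higher or lower when its difference was at least 1, a 2-fold change on that scale, and the higher of its values reached 5.79. This floor, the median over all 22410 genes of the higher value, was set for this report and does not mark detection. Folds of rows whose lower value lay under the floor are bounds against it, written "at least". All 7 genes listed as epithelial and gastric markers, such as KRT8 at 17.26 and 16.99, reached the floor on at least 1 array. MUC1 reached it only on the resistant array (5.54 and 9.90, 4.36), and CDH1 was called lower (15.07 and 13.97, -1.10). None of 7 measured markers of immune, fibroblast or endothelial cells reached the floor.

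MicroRNAs are short RNAs that lower the translation and stability of messenger RNAs. They are cut from long primary transcripts, first in the nucleus by DROSHA with DGCR8 to a hairpin, and then in the cytoplasm by DICER1 to the mature strand, which is loaded into an Argonaute protein. The seed, near the 5′ end of the mature strand, pairs with the target, so microRNAs with the same seed form a family. The extraction and labelling kits named in the labels are made for longer RNA. Which of the primary, precursor, mature or host RNAs a row reads was not tested, and a row need not follow the mature microRNA.

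The mature strands below belong to called rows that the text describes, with relatives of the same seed or cluster. They are not ordered by difference. In the miR-200 family, miR-141-3p and miR-200a-3p have a seed that differs from that of the others. RefSeq sequences of assembly GRCh38.p14 are shown 5′ to 3′, with the seed (bases 2 to 8) in capitals. Of the 1040 microRNA gene symbols, 946 matched a mature strand in that table. These coordinates are of GRCh38.p14, and for the deposited rows no build is named in the labels.
hsa-miR-31-5p (chr9:21512158-21512178, minus strand): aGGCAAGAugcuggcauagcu
hsa-miR-21-5p (chr17:59841273-59841294, plus strand): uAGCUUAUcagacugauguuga
hsa-miR-590-5p (chr7:74191213-74191234, plus strand): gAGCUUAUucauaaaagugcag
hsa-miR-4737 (chr17:60043077-60043096, minus strand): aUGCGAGGaugcugacagug
hsa-miR-4521 (chr17:8186948-8186969, plus strand): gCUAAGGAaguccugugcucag
hsa-miR-135b-5p (chr1:205448361-205448383, minus strand): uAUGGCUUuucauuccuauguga
hsa-miR-200c-3p (chr12:6963742-6963764, plus strand): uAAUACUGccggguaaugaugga
hsa-miR-200b-3p (chr1:1167160-1167181, plus strand): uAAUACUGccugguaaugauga
hsa-miR-429 (chr1:1169055-1169076, plus strand): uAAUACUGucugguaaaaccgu
hsa-miR-141-3p (chr12:6964155-6964176, plus strand): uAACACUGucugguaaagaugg
hsa-miR-200a-3p (chr1:1167916-1167937, plus strand): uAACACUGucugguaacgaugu
hsa-let-7f-5p (chr9:94176353-94176374, plus strand): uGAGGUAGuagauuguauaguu
hsa-miR-98-5p (chrX:53556299-53556320, minus strand): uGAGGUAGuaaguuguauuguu
hsa-miR-221-3p (chrX:45746180-45746202, minus strand): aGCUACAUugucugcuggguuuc
hsa-miR-222-3p (chrX:45747036-45747056, minus strand): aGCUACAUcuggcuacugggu

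The hairpins of the 2 microRNA genes that the text returns to most are shown with the mature 5p strand in capitals. Each hairpin as printed holds the stem that DICER1 cuts, together with bases that lie before the 5p strand.
MIR31 (chr9:21512115-21512185, minus strand): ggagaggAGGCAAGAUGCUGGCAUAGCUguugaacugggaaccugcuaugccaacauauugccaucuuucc
MIR21 (chr17:59841266-59841337, plus strand): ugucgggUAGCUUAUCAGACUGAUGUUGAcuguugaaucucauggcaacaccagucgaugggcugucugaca

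Most microRNA gene rows were low on both arrays, and those called were nearly all lower on the resistant array. The median value was 4.43 in the parental and 4.46 in the resistant line, and 246 rows (22.3%) reached the floor, beside 49.6% of all single-symbol rows. Of the 246, 20 were called lower, 2 higher and 224 neither. The 20 make 8.13% of the rows at or above the floor, beside a background of 8.9% among all 11793 single-symbol rows there. The 2 called higher make 0.81%, beside a background of 9.79%. Over all rows regardless of the floor, the background was 4.41% called lower and 4.86% called higher, against 1.81% and 0.18% of the microRNA gene rows. Among rows at or above the floor, the share called lower was thus near the background and the share called higher was below it; over all rows both were below it. With the median of a row's chromosome subtracted, 15 were called lower and 6 higher, and the background under that setting was not computed. Among the 6 are MIR1277, which had missed the threshold at 0.997, and MIR548AN, which the gene table places on another chromosome than its row name.

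**Figure D1:**
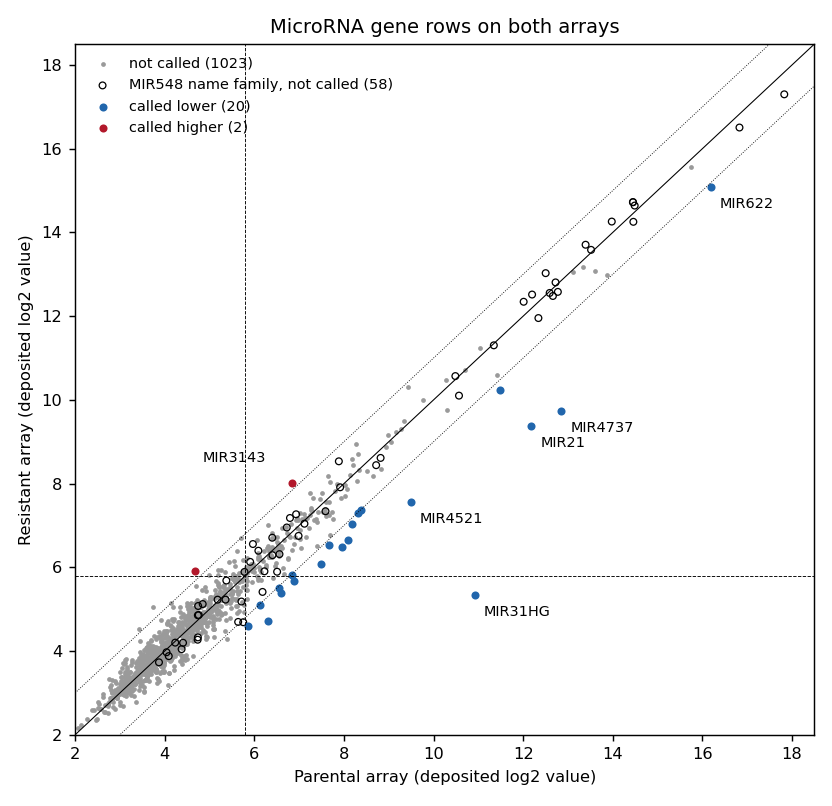
Deposited log2 value of each of the 1103 microRNA gene rows on the parental (x) and resistant (y) array. The solid line marks equal values, dotted lines a difference of 1 and dashed lines the floor of 5.79, and open circles are the 58 MIR548 rows; 20 rows called lower (blue) lie below the band and 2 called higher (red) above it.

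The rows at or above the floor were also less spread than other rows. Their median difference was -0.03 (quartiles -0.29 and 0.18), beside 0.02 (-0.38 and 0.44) over all single-symbol rows that reached it. Absolute differences had a median of 0.22 against 0.41, and 76.8% differed by less than 0.5 against 56.7%. In the lowest band, from the floor to 7, which holds 129 of the rows, 0.78% were called higher beside 3.81% of all single-symbol rows there, and 5.43% lower beside 4.57%. Among rows whose higher value lay between 7 and 9, 1 of 74 microRNA gene rows (1.35%) was called higher, beside 9.31% of all 4245 single-symbol rows in that band, and 7 (9.46%) were called lower, beside 8.65%. Of the 18 microRNA gene rows between 9 and 12 and the 25 above 12, none was called higher, beside 13.9% of all single-symbol rows in either band. In each of these bands 3 were called lower, 16.7% and 12%, beside 11.7% and 12%.

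**Figure D2:**
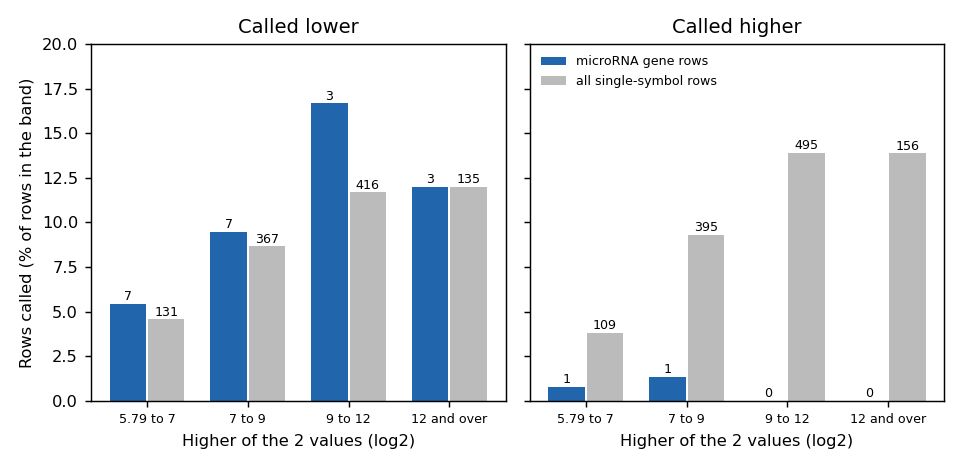
Share of rows called lower (left) and higher (right) by the higher of the 2 array values, for microRNA gene rows (blue) and all single-symbol rows (grey); the number over each bar is the count of called rows. The blue bars for rows called lower stand between 5.43% and 16.7%, and those for rows called higher at 1.35% or less.

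The largest difference was that of MIR31HG, the long non-coding host transcript of miR-31. Its row was 10.91 in the parental and 5.34 in the resistant line, a difference of -5.57 and at least 34.9-fold lower, the resistant value being under the floor. In bulk RNA, fewer cells with a transcript and less of it per cell cannot be told apart. MIR31 itself, whose mature strand is printed above, was 5.85 and 4.6, a difference of -1.25. Its parental value lay just over the floor, so that the bound is only 1.05-fold. In the gene table MIR31 and IFNE, the gene of the epithelial interferon epsilon, both lie within MIR31HG, and all are on the same strand. IFNE, chosen with the other neighbours after its values were seen, was 8.44 and 3.74, a difference of -4.70. Whether rows of these overlapping genes share signal was not tested.

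Around these, the genes at or above the floor also had negative differences, of smaller size. Of the 30 measured genes nearest to MIR31HG in table order, 15 on each side, 10 reached the floor and all 10 had a negative difference, with a median of -1.03; 6 were called lower and none higher, beside backgrounds of 8.9% and 9.79%. Without IFNE and MIR31, 8 reached the floor, 4 were called lower, and the median was -0.94. The cell cycle inhibitor genes CDKN2A (7.83 and 6.81, -1.02) and CDKN2B (8.74 and 7.62, -1.12) and the methionine salvage gene MTAP (9.68 and 8.65, -1.03) stood close to the threshold. With the chromosome 9 median of -0.12 subtracted, CDKN2A, CDKN2B, MTAP and CAAP1, a caspase regulator gene, were no longer called, which leaves IFNE and MIR31. KLHL9, on the other side of MIR31HG, differed by -0.85. The other genes on that side, 14 interferon alpha genes and pseudogenes, lay under the floor on both arrays.

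**Figure D3:**
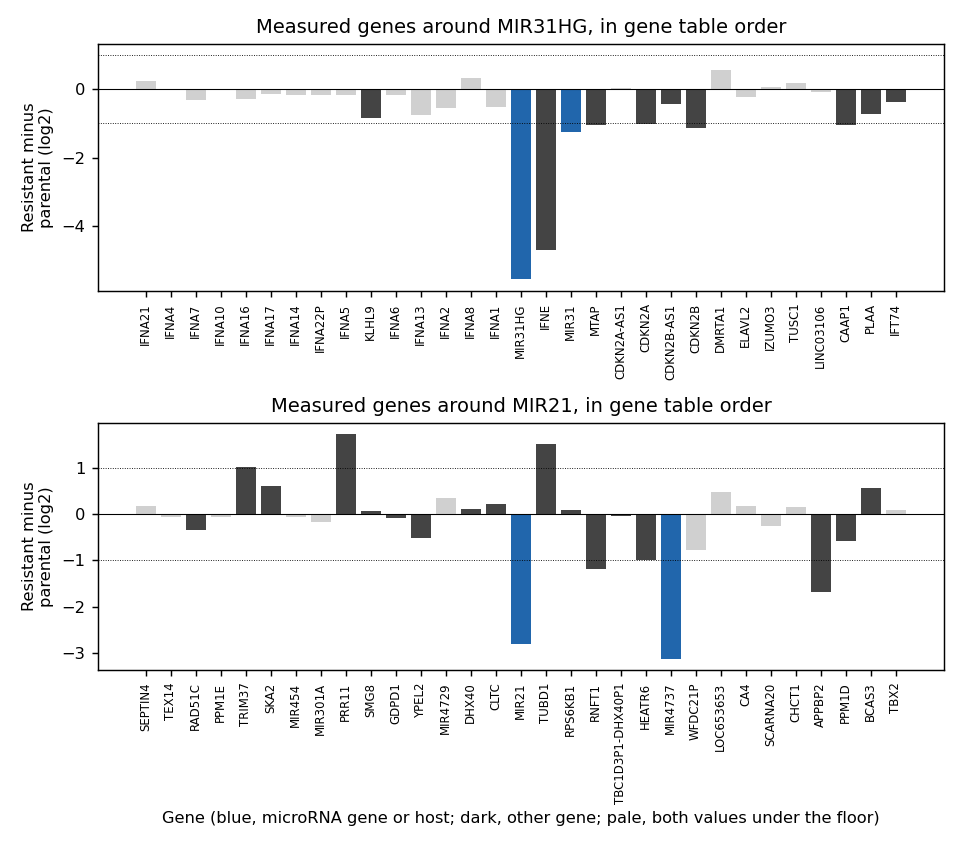
Difference (resistant minus parental, log2) of the measured genes around MIR31HG (top) and MIR21 (bottom), in gene table order and not to distance; blue bars are microRNA genes or hosts at or above the floor, dark bars other genes at or above it, pale bars genes under it. Around MIR31HG every dark bar points down, led by IFNE at -4.70, whereas around MIR21 dark bars point both ways.

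MIR21, the gene of a microRNA that is abundant in many carcinomas and lowers PDCD4, was 12.18 in the parental and 9.36 in the resistant line. The difference of -2.81 is 7.04-fold lower, with both values well over the floor. MIR21 lies inside VMP1, a gene of autophagosome formation, on the same strand. A separate row that the platform annotates jointly to VMP1 and MIR21 was 15.58 and 15.70, a difference of 0.12. The row of MIR21 alone and the joint row thus differed in direction, and the joint row cannot be assigned to either gene. The seed of miR-21-5p is shared by 1 other measured gene, MIR590, whose row was 9.77 and 9.99, a difference of 0.22.

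MIR4737 lies 6 measured genes from MIR21 in table order and was also lower. Its row was 12.85 in the parental and 9.72 in the resistant line, a difference of -3.13 or 8.74-fold. HEATR6, the gene that holds it, was 9.19 and 8.19, a difference of -1.0 that missed the threshold with quantile normalization and with loess centring; the strand of HEATR6 is not given in the tables used. Genes around MIR21 went both ways. Of the 30 nearest measured genes, 18 reached the floor, 9 of them with a negative difference and a median of 0.02; 4 were called lower, MIR4737 and HEATR6 among them, and 3 higher, beside backgrounds of 8.9% and 9.79%. RNFT1 (-1.20) and APPBP2 (-1.69) were lower, whereas TUBD1, the delta-tubulin gene next to MIR21, was higher (7.92 and 9.43, 1.52), as was PRR11 (10.00 and 11.71, 1.71).

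**Figure D4:**
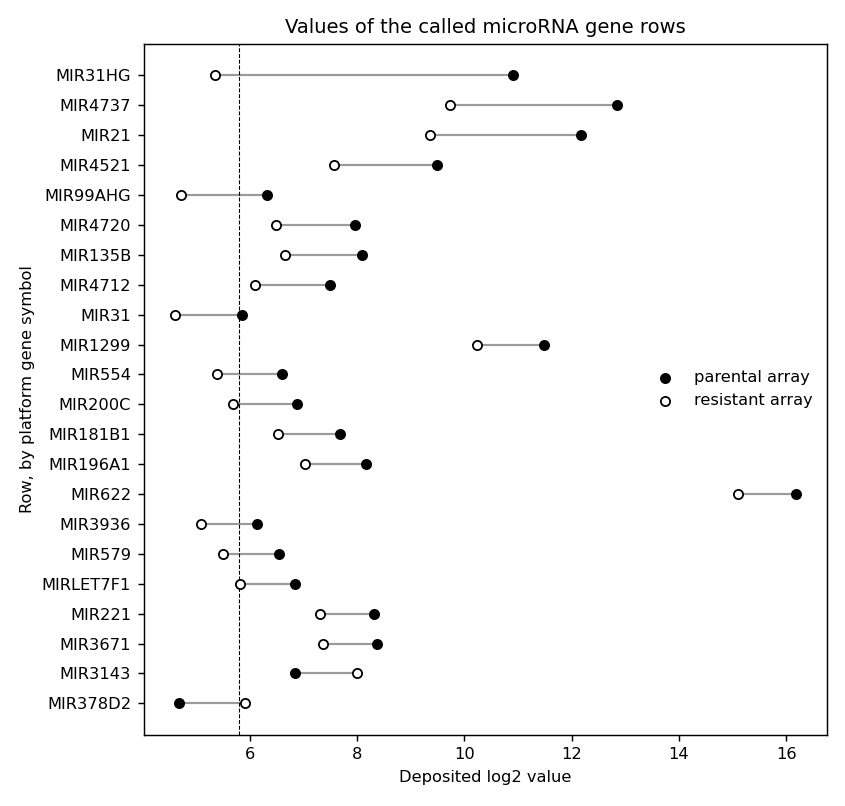
Deposited log2 values of the 22 called microRNA gene rows on the parental (filled) and resistant (open) array, ordered by difference, with the floor as a dashed line. MIR31HG, MIR4737 and MIR21 have the widest gaps, and MIR3143 and MIR378D2 are the rows with the resistant value to the right.

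The other rows called lower had smaller differences, 15 of the 20 by less than 1.5. MIR4521 was 9.49 and 7.56 (-1.93). MIR99AHG, the host of the miR-99a, let-7c and miR-125b-2 genes, was 6.32 and 4.71, at least 1.44-fold lower, while MIR99A (3.03 and 3.16), MIRLET7C (3.86 and 3.34) and MIR125B2 (3.98 and 4.15) inside it were under the floor on both arrays. MIR4720 (7.96 and 6.49), MIR135B (8.09 and 6.66), MIR4712 (7.49 and 6.09) and MIR1299 (11.48 and 10.23) followed, with differences from -1.47 to -1.25. MIR554, MIR200C, MIR3936 and MIR579 also had a resistant value under the floor, so that their bounds were 1.75-, 2.13-, 1.27- and 1.69-fold. MIR181B1 (7.67 and 6.52) and MIR196A1 (8.17 and 7.02), a gene of the HOXB cluster whose microRNA lowers HOX messages, both differed by -1.15.

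The rows nearest to the threshold show how close the call was for several. MIR3671 (-1.01), MIR221 (-1.01) and MIRLET7F1 (-1.02) lay just inside it on the lower side, and MIR4482 (-0.91), MIR598 (-0.90) and MIR5047 (-0.90) just outside. On the higher side the only called rows were MIR3143 (6.85 and 8.0, 1.16) and MIR378D2 (4.68 and 5.90, at least 1.08-fold). MIR1277 (0.997), MIR3153 (0.89) and MIR891A (0.84) lay just outside. MIR221, MIR3671, MIR579 and MIRLET7F1 were not called with quantile normalization. MIR1277 was called higher with quantile normalization and with loess centring.

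The 18 called microRNA genes with a mature strand in the RefSeq table carry 26 distinct seeds, and none of these seeds was held by 2 called rows. Of the 26, 13 were shared with other measured microRNA genes that were not called.

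The miR-200 family keeps epithelial cells epithelial by lowering ZEB1 and ZEB2. All 5 measured genes had a negative difference, 1 of them called. MIR200C was 6.88 and 5.68 (-1.20), while MIR141, in the same cluster as MIR200C, was 5.94 and 5.64 (-0.30) and MIR200B was 5.82 and 5.58 (-0.25). MIR200A (4.08 and 3.20) and MIR429 (4.38 and 4.07) were under the floor. The host transcript MIR200CHG had no row of its own in the annotation used.

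The let-7 family lowers RAS, HMGA2 and LIN28 messages. Of the 12 measured genes with its seed GAGGUAG, 3 reached the floor and 1 was called lower, and their differences ranged from -1.02 to 0.56. MIRLET7F1 was 6.84 and 5.82 (-1.02), MIRLET7D, in the same cluster, 6.14 and 5.70 (-0.44), and MIR98 6.48 and 6.10 (-0.38). The 3 rows were thus all lower on the resistant array, 1 of them by the size rule. Of miR-221 and miR-222, which share a seed and lower the cell cycle inhibitor CDKN1B, MIR221 was 8.32 and 7.30 (-1.01) and MIR222 under the floor at 4.38 and 3.79. Of the miR-181 genes, MIR181B1 was called lower, its host MIR181A1HG was 6.46 and 6.04 (-0.43), and MIR181D was 7.02 and 7.29 (0.27).

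Several other families had no called row. Of 9 measured genes of the miR-17 clusters and their paralogs, which favour proliferation, 7 had a positive and 2 a negative difference (median 0.19), and only MIR25 (5.19 and 5.93, 0.75) and MIR92A2 (5.57 and 6.03, 0.46) reached the floor. The founding cluster on chromosome 13 has a joint row with its host MIR17HG, at 6.11 and 5.72 (-0.39). MIR16-2, inside the condensin gene SMC4, was 6.75 and 6.23 (-0.52) although SMC4 was 12.31 and 12.95 (0.64). MIR29A was 7.65 and 8.18 (0.53), MIR30C2 6.63 and 5.99 (-0.64), and MIR34A, a gene that p53 activates, 6.32 and 6.39 (0.07). None of these was called.

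Several other groups, some of them tissue-restricted, were mostly or wholly under the floor. None of 42 measured genes of the chromosome 19 primate cluster, known from placenta, reached the floor, with a highest value of 4.84 and a median difference of 0.004. In the imprinted chromosome 14 cluster 4 of 45 measured genes did, none called, and these ranged from -0.69 (MIR494) to 0.78 (MIR656). The 4 genes of miR-192, miR-194 and miR-215, abundant in gut epithelium, were all under the floor, the highest being MIR192 at 4.18 and 5.05. MIR182, MIR183 and MIR96 were also under it. Of the 16 host gene rows, 12 were under the floor. The 4 others were MIR31HG, MIR99AHG, MIR181A1HG and MIR1915HG (5.54 and 6.15, 0.61).

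Rows of microRNA genes inside other genes partly followed those genes. For 54 microRNA genes at or above the floor, the gene table gave a host on the same strand with its own row at or above the floor. Across these 54 pairs, which come from the same arrays and may share transcript signal, the differences correlated with Pearson r = 0.57 and Spearman rho = 0.47, and with r = 0.50 without MIR31 and MIR31HG. Where a microRNA gene had several hosts, the one with the largest absolute difference was taken. Genes are not independent replicates, and the correlation is a description.

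Individual pairs show both patterns. In the 54 pairs, 5 hosts were called lower and 8 higher, beside backgrounds of 8.9% and 9.79%. Of 5 hosts called lower, all 5 held a microRNA row with a negative difference and 3 a row called lower: MIR31HG, TUFT1 and LEMD1. The other rows among the 6 called lower in these pairs, MIR579, MIR181B1 and MIR3671, lay in hosts that were not called. MIR554 (6.6 and 5.38, -1.22) lies in TUFT1, the gene of tuftelin (10.72 and 7.70, -3.02). MIR135B, whose microRNA lowers APC, differed by -1.43 and its host LEMD1 (8.86 and 7.18) by -1.68. GDF15, a stress cytokine gene, was 13.34 and 10.92 (-2.42), yet MIR3189 inside it was 6.39 and 6.25 (-0.14). Of 8 hosts called higher, 5 held a row with a positive difference and none a called row. Among the 8, SP4, SLC25A13, AP1S1 and MCM7 lie on chromosome 7, whose rows had a median of 0.51. Whether such pairs share more than the shift of their chromosome was not tested. MCM7, a replicative helicase gene, was 9.76 and 11.54 (1.78) with MIR25 at 0.75, and CKS2, a gene of a kinase subunit of the cell cycle, was 11.29 and 12.53 (1.24) with MIR3153 at 0.89. Opposite signs also occurred: PRKCA, a protein kinase C gene, was 8.12 and 10.88 (2.76) and MIR634 inside it 6.14 and 5.89 (-0.25). MIR3671 was called lower although its host JAK1, a cytokine receptor kinase gene, differed by 0.18.

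**Figure D5:**
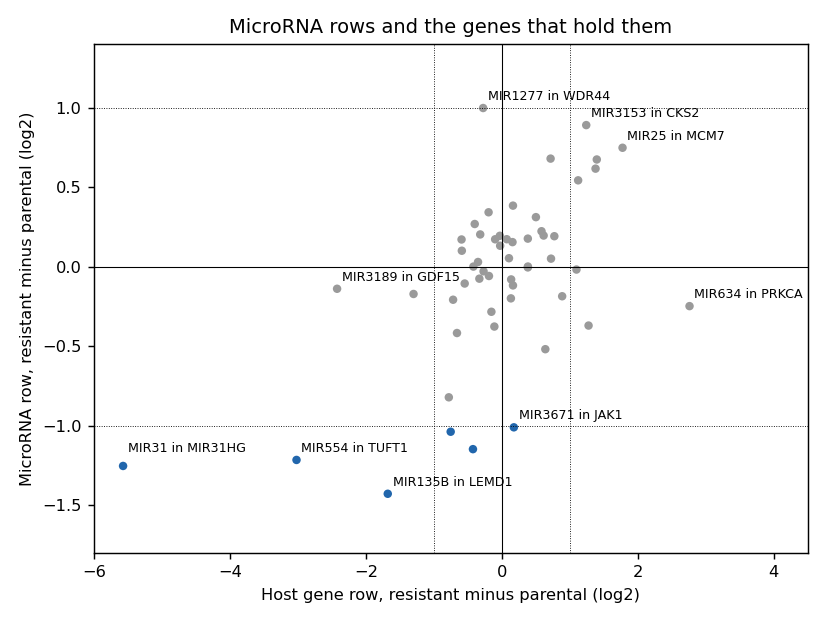
Difference of each microRNA row (y) against that of the same-strand gene that holds it (x), resistant minus parental in log2, for 54 pairs with both rows at or above the floor; blue points are microRNA rows called lower and dotted lines mark differences of 1. MIR31, MIR554 and MIR135B lie at the lower left with their hosts, and MIR634 in PRKCA lies far right of 0 with a slightly negative value.

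The highest microRNA gene values belonged to one name family. Of 22 rows with both values at 12 or more, 16 were MIR548 rows, a family of many genes that arose from short transposable elements. MIR548D1 was highest, at 17.83 and 17.30. Of 58 MIR548 rows, 40 (69.0%) reached the floor, beside 19.7% of the other 1045 rows, and none was called, with differences from -0.77 to 0.65 among the 40. The chromosome in the row's name differed from that of the gene table for 34 of 1080 rows with both, and 25 of these were MIR548 rows. The 27 MIR548 symbols with a mature strand carry 20 distinct seeds. MIR548AI and MIR548AJ2, named on different chromosomes, had the same value on each array, 14.45 and 14.72. In all, 32 microRNA gene rows shared both values with another row of the table, so the deposited rows are not all separate measurements. A row of this family is uncertain as a measure of the gene it is named for. Without it, 9.71% of the 206 rows at or above the floor were called lower and 0.97% higher.

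MIR622 was the highest row called, at 16.19 and 15.09 (-1.10). In the gene table it lies inside KRT18P27, a pseudogene of the keratin gene KRT18. KRT18 was itself high, at 16.57 and 15.95 (-0.63), and its part in the MIR622 row was not tested. MIR622 also lies on chromosome 13, whose 229 single-symbol rows at or above the floor had a median of -0.73, and with this median subtracted it differed by -0.37. The other microRNA gene rows placed on that chromosome and at or above the floor, MIR3613 (6.31 and 7.0, 0.69) and MIR548AN (12.01 and 12.34, 0.33), went the other way. They are among the 6 rows called higher once chromosome medians were subtracted. The gene table places MIR548AN on chromosome X, whose rows had a median of -0.07, so that call rests on the chromosome in the row's name. On chromosome 7, whose rows had a median of 0.51, the 17 microRNA gene rows had a median of 0.22 and none was called.

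Among the genes that make and use microRNAs, most did not meet the size rule, and those that did were lower. The Argonaute genes, annotated to several symbols each, are not in the counts here and follow below. Of 42 listed genes, 32 were measured under 1 symbol and 27 reached the floor. Of the 27, 2 were called lower and none higher, beside backgrounds of 8.9% and 9.79%, and their median difference was -0.06. The share called lower was thus near the background. XPO5, which carries hairpins out of the nucleus, was 10.84 and 9.15 (-1.69). PAN3, part of a deadenylase that Argonaute complexes recruit to target messages, was 11.12 and 8.94 (-2.18), and it lies on chromosome 13, less whose median it differed by -1.45. The cutting enzymes stayed within 0.5. DROSHA was 9.98 and 9.84 (-0.14) and DICER1 9.62 and 9.29 (-0.33), and TARBP2, the partner of DICER1, was under the floor. TUT7, which adds uridines to let-7 hairpins (10.19 and 9.31, -0.87), and HNRNPA2B1, an RNA-binding protein gene (13.62 and 14.45, 0.83), had the next largest differences among the 27. LIN28A and LIN28B, which block let-7 maturation, were under the floor on both arrays.

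The Argonaute genes were annotated to 2 symbols each, the second being an older symbol of the same gene in the gene table. The AGO2 and EIF2C2 row was 11.03 and 10.61 (-0.42), that of AGO1 and EIF2C1 10.43 and 10.39 (-0.04), and that of AGO3 and EIF2C3 10.05 and 9.47 (-0.58). The AGO4 and EIF2C4 row was 9.98 and 8.58, a difference of -1.40 that meets the size rule. The row shared by SND1, a nuclease gene of Argonaute complexes, and SND1-IT1 was 9.54 and 10.47 (0.93). The row shared by DGCR8 and the microRNA genes MIR1306 and MIR3618 was 7.85 and 7.57 (-0.28). Differences were 0.74 for the row of KHSRP and MIR3940 and -0.44 for that of DDX5, MIR3064 and MIR5047. For the row of HNRNPA1, HNRNPA1P10 and HNRNPA1L2 the difference was -0.17. Of the 9 rows of listed genes annotated to several symbols, only that of AGO4 met the size rule.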

How the data were processed

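The authors' deposited table holds log2 values, 1 per row and array, made with Affymetrix Expression Console per the submitters' processing notes; no source names its algorithm, version or build. The log base was inferred from the range of values and the program's usual output. Column medians were 4.76 on both arrays, and 650 parental and 693 resistant values exceeded 16, so a fold on this scale need not equal one in brightness. Rows were named by the platform annotation, and symbols updated with NCBI's GRCh38.p14 gene table (21497 rows by identifier, 1974 by symbol, 310 by synonym). Of several rows of a gene that is no microRNA gene, the one with the highest mean was used. LETM1 and similar symbols do not begin with MIR and were left out. Host genes were found by position in that table, with strands from the RefSeq sequence tables; where a microRNA gene had several hosts, the one with the largest absolute difference was taken. The members and lists were chosen with earlier results of these data known. Rows named are the called microRNA gene rows, those next to the threshold, host genes, members of the family lists at or above the floor, and called pathway genes with the main enzymes; other names were chosen after their values were seen. The size rule was run on simulated data with an assumed noise and with shifts beyond the threshold planted only in rows well over the floor. That run does not show how the rule treats rows near the threshold or the floor. Python 3.11.15, pandas 2.3.3 and statsmodels 0.14.6 were used. Alternatives were normalization, floor, threshold, chromosome median and choice of rows.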

Additional observations from a re-analysis of the deposited data

How the results depend on the processing

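No paired analysis was possible because there is 1 array per group, so no array could be left out either. The count of 20 rows called lower was between 15 and 22 with median centring, quantile normalization, loess centring, no floor, chromosome medians subtracted, 1 row per symbol and current symbols, and 20 in both alternatives added after seeing the data (without rows that share both values, and without rows whose chromosome differs from the gene table). It was 6 with the floor at the 75th percentile, 31 with a 1.5-fold and 3 with a 4-fold threshold. The count of 2 rows called higher was unchanged with median centring and 3 with quantile normalization or loess centring, which both called MIR1277 higher. It was 4 with no floor, 0 with the 75th percentile floor, 16 with a 1.5-fold threshold, 0 with a 4-fold threshold and 6 less chromosome medians. Of the processing and effector genes, a 1.5-fold threshold called 3 higher and 4 lower, and a 4-fold threshold 1 lower. The median difference of the microRNA gene rows at or above the floor, -0.03, lay between -0.04 and 0.02 in every alternative, its sign turning with quantile normalization and with no floor. Of the 22 called rows, 16 stayed called under the 3 normalizations and the chromosome median, and none changed direction. MIR221, MIR579 and MIRLET7F1 lost the call under both quantile normalization and chromosome medians, MIR3671 under the first only, and MIR3936 and MIR622 under the second only. Rows near the floor are the least certain, and the table carries no detection calls.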

Other observations

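A further 228 rows carry several platform symbols that include a microRNA gene or host, 149 of them at or above the floor. Of the 228, 73 carry only microRNA gene or host symbols, such as MIR1244-1 with MIR1244-2, and cannot be assigned to 1 of them. The rest also carry another gene and cannot be assigned to the microRNA. None of the 228 was counted among the microRNA gene rows. Of the 149, 11 (7.38%) met the size rule as lower and 9 (6.04%) as higher, beside backgrounds of 8.9% and 9.79%. The lowest was the row of LAMB3, a laminin chain gene, and MIR4260, with 12.65 in the parental and 9.27 in the resistant line (-3.38). It was followed by that of NEAT1, the long non-coding RNA that scaffolds paraspeckles, and MIR612 (13.27 and 10.78, -2.48) and that of the ion channel gene PIEZO1 and MIR4722 (-1.78). The row of PDCD4, a translation inhibitor gene and known miR-21 target, and MIR4680 was 12.58 and 11.02 (-1.56). The row of MIR22 and its host MIR22HG was 6.42 and 5.38 (-1.04). Among the higher ones, the row of DPY19L1 and MIR548N was 7.95 and 10.56 (2.61), and both rows of MIR1244-1 and MIR1244-2 had the same values, 13.45 and 15.62 (2.16). The row of CIT, the citron kinase gene of cytokinesis, and MIR1178 was 9.01 and 10.61 (1.59).

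The row of MIR23A, MIR27A, MIR24-2 and their host MIR23AHG was 7.13 and 6.41 (-0.72), and that of MIR15A, MIR16-1 and DLEU2, on chromosome 13, was 6.99 and 6.19 (-0.79). The row of MIR155 and MIR155HG (4.05 and 4.17) and that of MIR143, MIR145 and MIR143HG (4.33 and 4.36) were under the floor.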
